A study of Rattus norvegicus with 4 samples.

Results

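Neuronal intermediate filaments were described here through the 5 protein-coding genes that encode them, Nefl, Nefm, Nefh, Ina and Prph, among 22293 protein-coding genes and 33506 features of all kinds. The rule takes members by gene symbol and protein-coding biotype. Each symbol matched 1 row, and all 5 genes passed the filter on low counts that 14719 protein-coding genes passed. RNA sequencing was carried out on lumbar dorsal root ganglia (DRGs), the clusters of sensory nerve cell bodies beside the spinal cord, with several ganglia pooled into each library. Wild-type neonatal Wistar rats had received either phosphate-buffered saline (vehicle) or cisplatin, a platinum chemotherapy drug that damages sensory nerves, at 0.3 mg/kg into the peritoneum on a pair of days in early life. Each group had 2 libraries. The labels place collection 16 days after treatment, whereas the methods of the study give an age that falls about a week after the second injection, and sex was not stated for the single libraries. The comparison addressed the condition of the DRG after early-life cisplatin in a model of lasting neuropathic pain, and here it is read for the filament genes of the neurons.

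Intermediate filaments are rope-like polymers that give cells mechanical strength. In neurons the light, medium and heavy neurofilament subunits, encoded by Nefl, Nefm and Nefh, assemble together, are carried slowly down the axon and fill it, so that their amount helps to set axon diameter and with it conduction speed. In DRGs the heavy subunit is the classic mark of large myelinated neurons, whereas peripherin, encoded by Prph, is most abundant in small neurons, many of which sense pain and temperature. Alpha-internexin, encoded by Ina, is the fourth subunit of neurofilaments in the brain and spinal cord. Neurofilament light chain released into blood is widely used as a marker of axon damage, and injury to a peripheral axon is known to lower neurofilament transcripts in the cell body.

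Promoter sequences were looked up to show the DNA in front of the genes, because all 5 transcripts followed a similar course over the 4 libraries. The RefSeq promoter table of the rat genome build GRCr8 matched 2 of the 5 genes, Ina and Prph. Nefl, Nefm and Nefh had no entry. The 250 bases before each annotated start are given 5′ to 3′ on the gene's own strand, at chr1:255837879-255838128 (+) for Ina and chr7:132097039-132097288 (+) for Prph. Capitals mark matches to TATAAA, the core of the TATA box, and to GGGCGG, the GC box, which appears as CCGCCC when it lies on the opposite strand.
Ina: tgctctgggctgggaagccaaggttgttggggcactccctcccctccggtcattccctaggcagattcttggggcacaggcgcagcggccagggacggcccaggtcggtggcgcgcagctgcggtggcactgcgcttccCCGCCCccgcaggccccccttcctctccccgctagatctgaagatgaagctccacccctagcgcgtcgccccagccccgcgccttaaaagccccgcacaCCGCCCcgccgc
Prph: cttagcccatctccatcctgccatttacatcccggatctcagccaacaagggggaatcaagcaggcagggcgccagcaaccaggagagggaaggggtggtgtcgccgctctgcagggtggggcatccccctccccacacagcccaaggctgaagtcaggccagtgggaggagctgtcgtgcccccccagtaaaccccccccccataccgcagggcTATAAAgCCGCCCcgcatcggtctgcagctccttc
The Prph window held 1 TATAAA and, next to it, 1 GC box. The Ina window held 2 GC boxes and no TATAAA. Searched on both strands, TATAAA occurred in 12.9% and GGGCGG in 30.5% of 33469 promoter windows of the same length. CCAAT occurred in neither of these windows and in 34.0% of all. Both windows were rich in G and C, at 70.8% for Ina and 64.4% for Prph, against a median of 51.2% over all windows. These matches describe letters in the windows and were not set against any binding data.

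The libraries held between 21384801 and 25618417 counts. Listed Schwann and satellite glial markers were higher in replicate 2 than in replicate 1 of each group when summed. The 5 filament genes ran the other way and took 2.86% and 1.84% of counts in the vehicle-treated libraries and 3.06% and 2.02% in the cisplatin-treated libraries. Vehicle-treated replicate 1 also held skeletal muscle transcripts, with the listed muscle markers summing to 460 CPM (counts scaled to a common library size) against at most 50.6 CPM in the other libraries, and spinal cord markers summing to 43.3 CPM against at most 10.5 CPM. In whole ganglia, fewer neurons and less RNA per neuron cannot be told apart. The p-values measure only the spread between these libraries.

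Nefl, Nefm, Nefh and Prph were among the 40 most abundant protein-coding transcripts of every library by FPKM, Ina was far lower, and none of the 5 differed between treatments by the test used. The highest level of every gene was in cisplatin-treated replicate 1, but both replicate 2 libraries were lower than both replicate 1 libraries, so the groups overlapped for every gene. A gene was called when edgeR's quasi-likelihood test put it under 0.05 after Benjamini-Hochberg adjustment and its level differed 1.5-fold or more. By this rule 0 of 5 members were called, where 0.00679% of all tested genes were (1 gene, called lower). At an unadjusted p under 0.05 the count was also 0 of 5, where 9.43% of all tested genes passed, and DESeq2 called 0 of 5 members, where it called 0.981% of the genes to which it gave an adjusted p. Both cisplatin-treated libraries lay above both vehicle-treated libraries for 0 of 5 members and for 20.6% of tested genes. All 5 fitted differences were above 0, as were those of 49.1% of tested genes, and their median on the log2 scale was 0.21 against -0.01 over all tested genes.

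Nefl (ENSRNOG00000013658) lies on the plus strand at chr15:44799334-44804574 of Rnor_6.0 and encodes the light subunit, the core on which neurofilaments assemble. Its level, in CPM scaled by the trimmed mean of M-values (TMM), was 9321 and 6830 in the vehicle-treated libraries and 10509 and 7529 in the cisplatin-treated libraries. Means were 8076 ± 1761 and 9019 ± 2107 (SD, n = 2 each). Vehicle-treated replicate 1 stood above cisplatin-treated replicate 2, and the higher library of a group exceeded the lower one 1.36-fold in vehicle-treated and 1.40-fold in cisplatin-treated rats. The fitted fold change was 1.12, with a 95% interval from 0.477 to 2.62 (log2 0.16 ± 0.492, SE; edgeR adjusted p = 0.927). In FPKM (fragments scaled for gene length and library depth), the scale on which genes can be set side by side, Nefl was at 2691, 1951, 3029 and 2174 in the same order of libraries. It ranked 6, 15, 10 and 16 among all protein-coding genes.

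**Figure D1:**
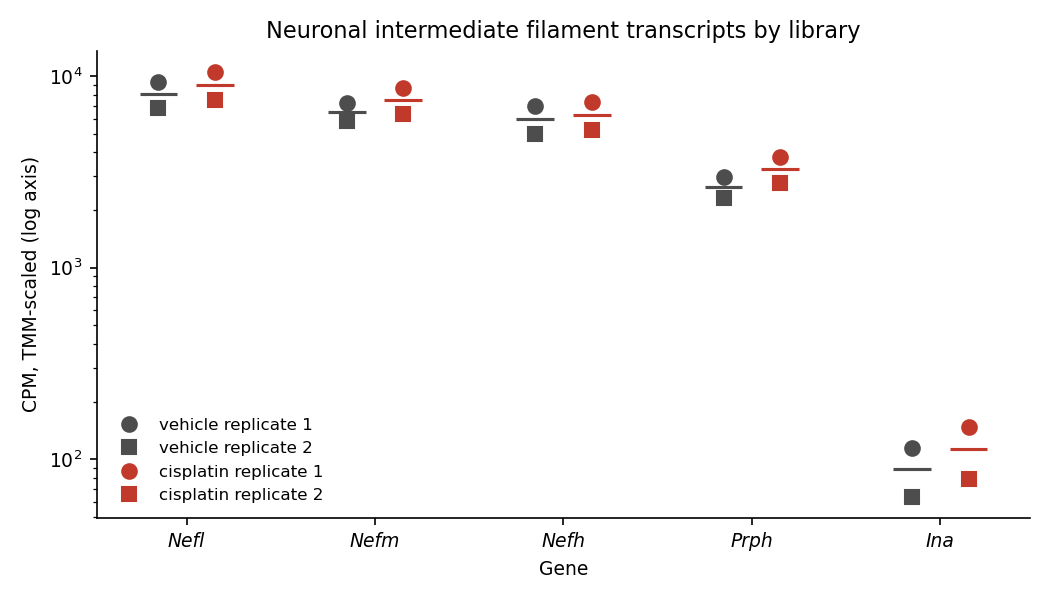
TMM-scaled CPM of the 5 filament genes (log axis) in each of the 4 libraries, with colours for treatment, marks for replicates and a bar for each group mean. For every gene the higher vehicle-treated library lies above the lower cisplatin-treated library, for Nefl at 9321 against 7529 CPM.

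Nefm (ENSRNOG00000013916) lies close by on the minus strand at chr15:44855310-44860604 and encodes the medium subunit, whose long tail reaches sideways from the filament. Its level was 7208 and 5835 CPM in vehicle-treated and 8668 and 6375 CPM in cisplatin-treated libraries, and the groups overlapped. Group means were 6522 ± 971 and 7521 ± 1621 CPM (SD, n = 2 each), for a fitted fold change of 1.15 with an interval from 0.523 to 2.54 (log2 0.21 ± 0.457, SE; edgeR adjusted p = 0.900). Nefh (ENSRNOG00000008716, chr14:85181572-85191557, minus strand) encodes the heavy subunit, whose tail is heavily phosphorylated in mature axons. It was at 6986 and 5006 CPM in vehicle-treated and at 7356 and 5212 CPM in cisplatin-treated libraries. Of the 5 genes Nefh had the fitted difference nearest to 0, at a fold change of 1.05 with an interval from 0.472 to 2.33 (log2 0.07 ± 0.461, SE; edgeR adjusted p = 0.969).

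Ina (ENSRNOG00000020248, chr1:266781617-266794431, plus strand) was the member with the lowest level by far. It was at 115 and 63.8 CPM in vehicle-treated libraries and at 147 and 78.8 CPM in cisplatin-treated libraries. Ina also varied most between libraries of a group, 1.80-fold in vehicle-treated and 1.86-fold in cisplatin-treated rats, whereas the other 4 varied between 1.24-fold and 1.41-fold. Counting alone gave Ina an error of at most 2.82%, far smaller than this spread. Its fitted fold change was 1.26 with an interval from 0.626 to 2.55 (log2 0.34 ± 0.406, SE; edgeR adjusted p = 0.803). Ina is the only member whose span overlaps other genes, namely 1294 bases of Nt5c2 on the opposite strand and 106 bases of a U6 snRNA gene. Whether counting used strand was not stated, and reads in the overlaps cannot then be assigned to one gene. Nt5c2 counts were between 589 and 859 per library, against 1256 to 3726 for Ina.

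Prph (ENSRNOG00000052880, chr7:140742418-140746197, plus strand) was at 2978 and 2303 CPM in vehicle-treated libraries and at 3775 and 2776 CPM in cisplatin-treated libraries. The groups overlapped through vehicle-treated replicate 1, at 2978 CPM, and cisplatin-treated replicate 2, at 2776 CPM. The fitted fold change was 1.24 with an interval from 0.639 to 2.41 (log2 0.31 ± 0.383, SE; edgeR adjusted p = 0.807). The intervals of all 5 genes therefore reached from a fall of more than 1.5-fold to a rise of more than 2-fold.

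The direction of the fitted differences rested on single libraries for 4 of the 5 genes. Without cisplatin-treated replicate 1 the log2 difference became -0.09 for Nefl, -0.02 for Nefm, -0.19 for Nefh, -0.17 for Ina and 0.08 for Prph. Without vehicle-treated replicate 2 it was -0.04 for Nefl, 0.06 for Nefm, -0.15 for Nefh, -0.02 for Ina and 0.14 for Prph. Without vehicle-treated replicate 1, the library with muscle and spinal cord transcripts, it was 0.41 for Nefl, 0.37 for Nefm, 0.33 for Nefh, 0.83 for Ina and 0.51 for Prph. Without cisplatin-treated replicate 2 the values were 0.38, 0.41, 0.30, 0.72 and 0.52 in the same order of genes. None of the 5 was called in any of these fits.

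Set beside one another per length of transcript, 4 of the filament genes were expressed at like levels and Ina far below. Nefl made up 31.8% and 30.7% of the FPKM summed over the 5 genes in vehicle-treated libraries, and 30.9% and 30.6% in cisplatin-treated libraries. Nefm made up 27.3%, 29.1%, 28.3% and 28.7% in the same order of libraries. The shares of Nefl and Nefm overlapped between groups. Nefh made up 21.0% and 19.9% in vehicle-treated and 19.1% and 18.7% in cisplatin-treated libraries. Prph made up 19.6% and 20.1% in vehicle-treated and 21.5% and 21.8% in cisplatin-treated libraries. Thus Nefh and Prph traded places in the order of levels, with Nefh ahead in vehicle-treated replicate 1 and Prph ahead in the other 3 libraries. In vehicle-treated replicate 2 these neighbours stood at 19.9% and 20.1%, closer than the spread between the vehicle-treated libraries. Ina stayed between 0.213% and 0.319%. Nefl exceeded Ina by 96.8-fold to 145-fold in single libraries.

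**Figure D2:**
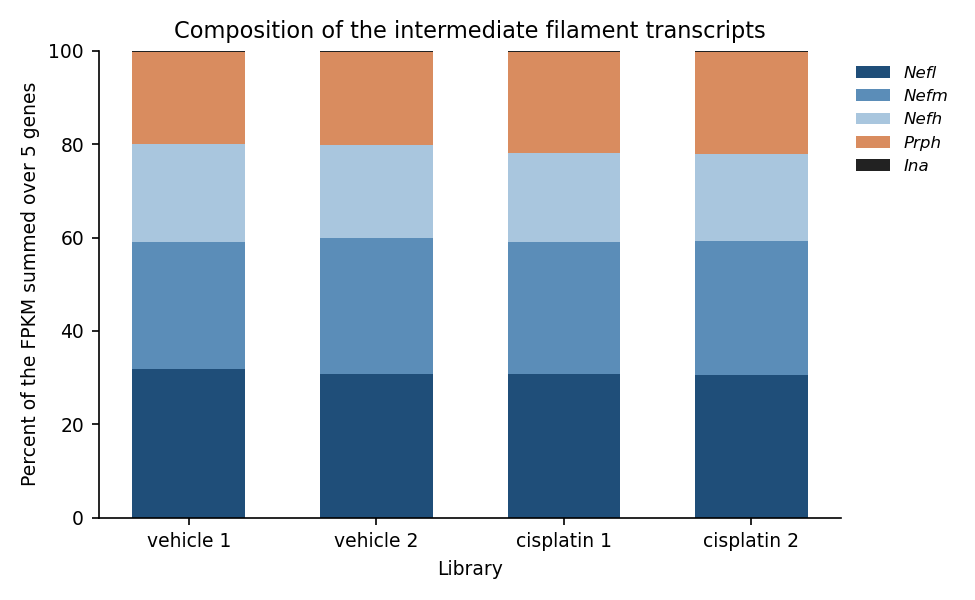
Percent of the FPKM summed over the 5 filament genes that each gene contributed, in each of the 4 libraries. The Nefh share is 21.0% and 19.9% in vehicle-treated and 19.1% and 18.7% in cisplatin-treated libraries, while the Ina share stays under 1% everywhere.

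A ratio between a pair of transcripts within a library does not depend on how deeply the library was sequenced or, where both come from neurons alone, on how many neurons it held. The 10 possible pairs were compared on the log2 FPKM scale, and in 5 of them the groups did not overlap. Nefl to Prph was 0.69 and 0.62 in vehicle-treated libraries and 0.52 and 0.49 in cisplatin-treated libraries. Nefh to Prph was 0.10 and -0.01 in vehicle-treated libraries and -0.17 and -0.22 in cisplatin-treated libraries, a difference of -0.24 with a pooled SD of 0.0612. Prph was thus more abundant relative to Nefh and to Nefl in both cisplatin-treated libraries. Nefl to Nefh was 0.60 and 0.63 in vehicle-treated libraries and 0.69 and 0.71 in cisplatin-treated libraries, and Nefm to Nefh was also higher in both cisplatin-treated libraries, by 0.13 on average. Nefm to Prph was lower in both, by 0.11 on average. Nefl to Nefm and all 4 ratios with Ina overlapped between groups.

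With 2 libraries per group an exact two-sided permutation test cannot go below p = 0.333, and that was the value for each of these 5 pairs (adjusted over the 10 pairs, exact p = 0.666). Read against all genes, Nefl, Nefm and Prph, 3 of the 4 other members, had a ratio to the Nefh count that was higher in both cisplatin-treated libraries, which held for 11.3% of tested genes, and Nefl, Nefm and Nefh, 3 of 4, had a ratio to the Prph count that was lower in both, which held for 31.7%. These counts share the same genes and libraries and are not independent. For Nefl, Prph was 1 of 4 other members whose ratio to the Nefl count was higher in both cisplatin-treated libraries, which held for 8.32% of tested genes. Nefh was 1 of 4 whose ratio to the Nefl count was lower in both, which held for 18.8%. When edgeR was scaled to the Nefl count, the log2 difference was 0.15 for Prph and -0.09 for Nefh, and neither was called. Gene length moved with these ratios. Over all tested genes the fitted log2 difference was lower for longer genes (Spearman's rho -0.357 across genes, which are not independent replicates), and Prph, at 1753 bases, is shorter than Nefl (3393 bases) and Nefh (3843 bases). After a correction for this trend the difference in Prph to Nefl went from 0.15 to -0.03, that in Prph to Nefh from 0.24 to 0.03, and that in Nefh to Nefl from -0.09 to -0.06. For the pairs with Nefm, the corrected log2 differences of the single genes were 0.28 for Nefm, 0.23 for Prph and 0.19 for Nefh. Nefm thus no longer lay below Prph and still lay above Nefh. What part length had in these ratios was otherwise not tested.

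The other intermediate filament genes were measured for comparison. Of 9 listed, 8 were tested, none was called, 1 had a fitted difference above 0 and the median log2 difference was -0.34. Vim, which encodes vimentin, the filament of glia, fibroblasts and endothelium, was at 1819 and 3016 CPM in vehicle-treated and at 1481 and 3249 CPM in cisplatin-treated libraries. Vim was high in the replicate 2 libraries, in which the neuronal filament genes were low. Synm, which encodes synemin, was at 475 and 278 CPM in vehicle-treated and at 419 and 250 CPM in cisplatin-treated libraries, and so followed the order of the neuronal genes within each group. The log2 difference was -0.03 for Vim and -0.17 for Synm.

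**Figure D3:**
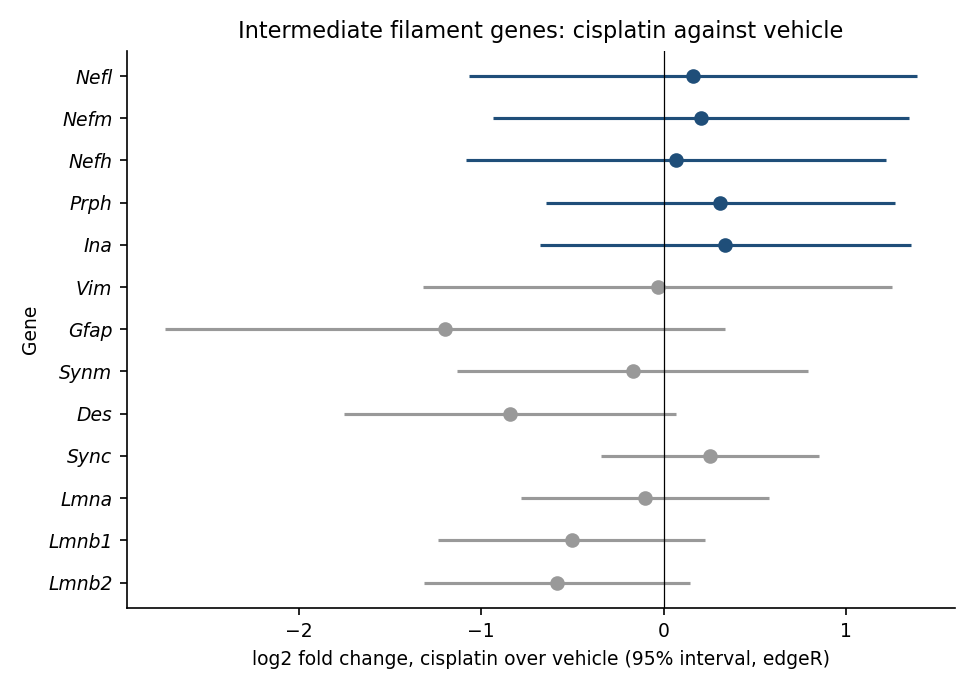
log2 fold change, cisplatin-treated over vehicle-treated, with 95% intervals from edgeR, for the 5 neuronal and the 8 tested other intermediate filament genes. The 5 neuronal genes lie between 0.07 and 0.34 and every one of their intervals spans 0.

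A list of 20 genes that link, carry, phosphorylate or clear neurofilaments was tested whole. None was called, 7 had a fitted difference above 0 and the median was -0.33. The genes of this list with an unadjusted p under 0.05 numbered 5, all with a negative difference, against 9.43% of tested genes in either direction. They are named here after their values were seen. Plec and Macf1 encode giant linker proteins of the cytoskeleton (log2 differences -0.62 and -0.51), Kif5b and Dync1h1 encode motor proteins that move cargo along microtubules (-0.77 and -1.35), and Gsk3b encodes a kinase (-0.84). Several of these transcripts are long, and length moved with the fitted difference over all genes. The most abundant genes of the list were Klc1, a kinesin light chain (0.08), and Mapk3, the kinase ERK1 (0.34). Mapk3 was at 765 and 991 CPM in vehicle-treated and at 1128 and 1092 CPM in cisplatin-treated libraries.

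Among 12 other axonal cytoskeleton genes none was called and the median log2 difference was 0.03. Tubb3, the neuronal beta-tubulin, was at 2443 and 2032 CPM in vehicle-treated and at 3583 and 2637 CPM in cisplatin-treated libraries, with a log2 difference of 0.47 (edgeR adjusted p = 0.689). Tuba1a, an alpha-tubulin, gave 0.15. Of the 12 genes, 2 (Tubb3 and Stmn2, a tubulin-binding protein gene) were higher in both cisplatin-treated libraries, as were 20.6% of all tested genes. Lower in both were 3, and the share of all tested genes lower in both was not counted. Those 3, named after their values were seen, were Map2, a microtubule-binding protein gene (-1.23), Ank2, an ankyrin (-1.01), and Sptbn1, a spectrin (-0.54). Length moved with the fitted difference over all genes, and its part here was not tested.

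Pan-neuronal markers gave a yardstick for how much neuronal RNA each library held. Their summed level was 4750 and 3812 CPM in vehicle-treated and 8273 and 5273 CPM in cisplatin-treated libraries, so that both cisplatin-treated libraries were higher, whereas the 5 filament genes summed to 26608 and 20038 CPM against 30455 and 21971 CPM, which overlapped. Of the 12 markers none was called and 10 had a difference above 0, whereas Elavl3 (-0.42) and Pou4f1 (-0.11) were below 0. In both cisplatin-treated libraries 4 markers were higher, as were 20.6% of all tested genes. The median log2 difference was 0.33. Uchl1, a ubiquitin hydrolase abundant in neurons, was at 1767 and 1497 CPM in vehicle-treated and at 3345 and 2204 CPM in cisplatin-treated libraries (log2 difference 0.77; edgeR adjusted p = 0.559). Thy1, a neuronal surface protein, gave 0.84 (edgeR adjusted p = 0.533). Uchl1, Thy1 and Snap25 (0.65) made up most of the marker sum in every library, and each was higher in both cisplatin-treated libraries. The contrast between the marker sum and the filament genes thus rested mainly on these abundant markers.

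When counts were divided by a size factor from these markers, Nefl and Nefh stood lower in both cisplatin-treated libraries and the other 3 genes overlapped. Nefl was at 202216 and 214972 scaled counts in vehicle-treated and at 179646 and 189985 in cisplatin-treated libraries. Nefh was at 151567 and 157550 in vehicle-treated and at 125740 and 131528 in cisplatin-treated libraries. That made 2 of 5 members lower in both, against 26.6% of all tested genes. The abundant markers Uchl1, Thy1 and Snap25, at 1064, 1328 and 2115 bases, are shorter than Nefl (3393 bases) and Nefh (3843 bases). Length moved with the fitted difference over all genes, and its part in this scaling was not tested. In edgeR with this scaling the log2 differences were -0.17 for Nefl, -0.14 for Nefm, -0.26 for Nefh, 0.000452 for Ina and -0.03 for Prph, and none was called. This scaling moved the median over all tested genes from -0.01 to -0.34, by amounts that differed somewhat between genes. A change of sign in differences this small thus followed from the scaling itself, and all 5 genes still lay above that median.

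Markers of neuron classes were compared because the heavy neurofilament and peripherin label different classes. Markers of large myelinated neurons had a median log2 difference of 0.12 over 9 tested genes, 7 of them above 0, and summed to 1712 and 1545 CPM in vehicle-treated and 2002 and 1827 CPM in cisplatin-treated libraries. Markers of small unmyelinated neurons had a median of 0.40 over 10 tested genes, all 10 above 0, and summed to 2305 and 1705 CPM in vehicle-treated and 3173 and 2141 CPM in cisplatin-treated libraries. No gene was called in either list. Among large-neuron markers Ldhb, a lactate dehydrogenase subunit, gave 0.17 and Spp1, osteopontin, gave 0.38. Ldhb and Spp1 made up most of the large-neuron sum in every library. Unlike the filament genes, Ldhb was higher in replicate 2, at 517 and 598 CPM in vehicle-treated and 581 and 674 CPM in cisplatin-treated libraries. The large-neuron markers below 0 were Scn8a (-0.88) and Ntrk3 (-0.39). Calca, the gene of the pain-related peptide CGRP, was at 957 and 739 CPM in vehicle-treated and at 1216 and 996 CPM in cisplatin-treated libraries, and Scn10a, the sodium channel Nav1.8, gave 0.44. The difference between these lists was not tested, nor was the part of neuron class in the ratio of Prph to Nefh.

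Genes known to be induced in DRG neurons after axon injury were also followed. Of 9 listed, 6 were tested, none was called and the median log2 difference was -0.04. Jun, a transcription factor, gave -0.10 and Gadd45a, a stress response gene, gave 0.11. Sprr1a, Npy and Vip were too low to be tested, with Sprr1a at 0 or 1 count and Npy at 0 counts in each library, and Vip at 2 to 12 counts.

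**Figure D4:**
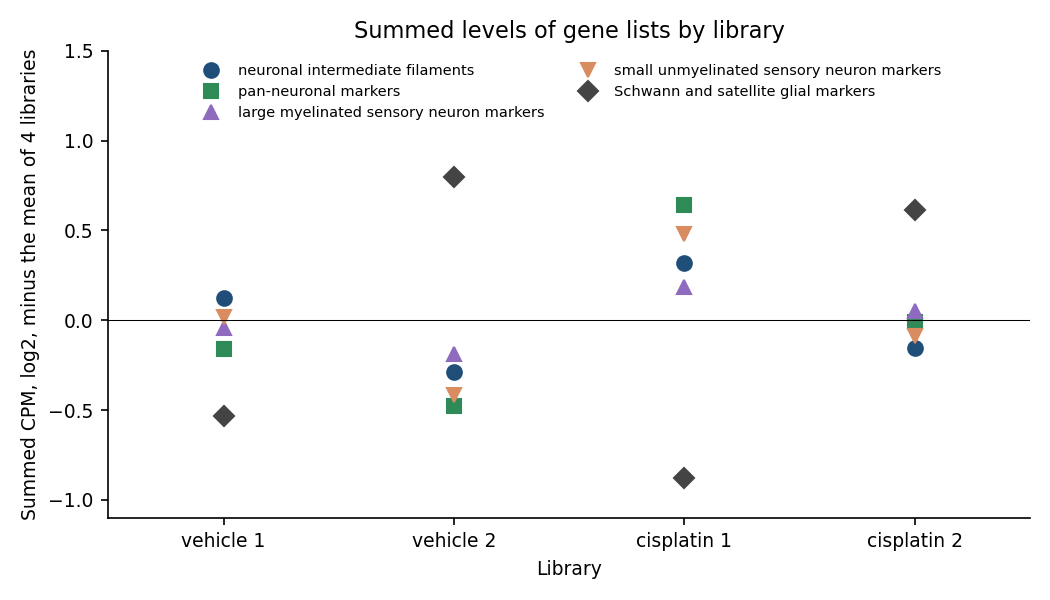
Summed CPM of gene lists in each of the 4 libraries, as log2 minus the mean of the 4 libraries. The filament genes (26608, 20038, 30455 and 21971 CPM) are low where the Schwann and satellite glial markers (63264, 159280, 49817 and 140000 CPM) are high.

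Within groups, summed markers of glia, fibroblasts, endothelium and macrophages ran opposite to the filament genes. Summed muscle and spinal cord markers were higher in replicate 1 of each group, as the filament genes were. Schwann and satellite glial markers summed to 63264 and 159280 CPM in vehicle-treated and to 49817 and 140000 CPM in cisplatin-treated libraries, high in both replicate 2 libraries, in which all 5 filament genes were low. None of the 10 glial markers was called, and their median log2 difference was -0.19. Pmp22, a gene of peripheral myelin, gave -0.20. Fibroblast and meninges markers had a median of -0.17 over 7 genes, and split both ways, with 2 higher and 3 lower in both cisplatin-treated libraries. Over all tested genes 20.6% were higher in both. The share lower in both was not counted, which also holds for the macrophage and leukocyte list below. Col1a1, a collagen, was at -0.74 and Dcn, decorin, at 0.06, and the extremes, named after their values were seen, were Ptgds, a prostaglandin synthase, at 2.07 and Col1a2, a collagen, at -1.59 (edgeR adjusted p = 0.287 and 0.522). Endothelial markers had a median of -0.23 over 3 tested genes, with Cdh5 at 0.13 and Kdr at -0.51, and macrophage and leukocyte markers a median of -0.01 over 6 genes, with Csf1r at -0.05 and Mrc1 at 0.10. The macrophage and leukocyte list also split both ways, with genes named after their values were seen. In both cisplatin-treated libraries Cd68 (0.86) was higher, at 2.87 and 3.27 CPM against 1.56 and 1.83 CPM, and Ptprc (-0.20) and Aif1 (-0.32) were lower. Muscle markers had a median of -3.25 over 4 tested genes, led by vehicle-treated replicate 1, in which Acta1, skeletal actin, was at 186 CPM against 6.45 to 30.6 CPM elsewhere and Mylpf, a myosin light chain, at 106 CPM against 2.13 to 7.87 CPM. Of the spinal cord markers 2 of 5 were tested. Aqp4, an astrocyte water channel, was at 28.7 CPM in vehicle-treated replicate 1 against 1.52 to 5.20 CPM elsewhere, and Mog, of central myelin, was at 14.6 CPM against 4.42 to 5.31 CPM. Olig2 had 56 counts in that library and 0 in the others, and Chat, which marks motor neurons, had 0 to 2 counts. None of these genes was called. The part of glial, muscle or spinal cord RNA in the levels of the filament genes was not tested. The filament gene differences without vehicle-treated replicate 1 stand above.

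Nefl and Nefm are neighbours on chromosome 15, on opposite strands with 50735 bases between them. The nearest tested genes that do not overlap a member were compared to see whether the surrounding genes differed too. Outside the pair lay Dock5, 171568 bases before Nefl, with a log2 difference of -0.51, and Dleu7, 499898 bases after Nefm, with 0.50. Nefh lay between Thoc5 (-0.00) and Ap1b1 (0.09), Ina between Cnnm2 (0.17) and Pcgf6 (-0.36), and Prph between Tuba1c (0.41) and Troap (0.35). Nt5c2, which overlaps the start of Ina and lies between it and Cnnm2, was therefore not among these neighbours. None of the 8 neighbouring genes outside the family was called. Tuba1c, an alpha-tubulin gene, was at 7.43 and 16.8 CPM in vehicle-treated and at 12.9 and 19.3 CPM in cisplatin-treated libraries, high in the replicate 2 libraries where Prph was low.

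The course of the 5 filament genes over the libraries was summarised as the mean of their centred log2 CPM, which was 0.14 and -0.35 in vehicle-treated and 0.38 and -0.17 in cisplatin-treated libraries. Nefl lay nearest to this course, at a root-mean-square distance of 0.0398, Prph, Nefh and Nefm lay at 0.0741, 0.0751 and 0.0762, and Ina lay farthest at 0.184. Of 14677 other tested genes, 467 lay within 0.1 of it and 1873 lay nearer than Ina, so the course was a common one in these 4 libraries. Among the 5 nearest genes were Myt1, a zinc finger transcription factor (0.00862), Fibin (0.0143), Tigd2 (0.0145) and Ttc19, a mitochondrial protein gene (0.0171). Myt1 was at 19.9 and 14.2 CPM in vehicle-treated and at 23.8 and 16.0 CPM in cisplatin-treated libraries, far below the filament genes in level. Likeness over 4 libraries is a description with few points.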

How the data were processed

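Per the labels and the study's methods, poly-A-selected RNA from pooled lumbar DRGs was sequenced in paired ends, and reads were mapped to Rnor_6.0 with HISAT2 2.0.5 and assembled with StringTie 1.3.3b. The submitters' processing notes also name featureCounts 1.5.0-p3, DESeq2 1.20.0, edgeR 3.22.5 and GATK 4.1.4.1. The authors deposited raw counts per gene and FPKM values, which proved to be these counts over gene length, times 1 constant per library. Strand use in counting was not given in the sources used here.

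Protein-coding genes kept by filterByExpr (14719) were TMM-scaled (factors 1.10, 0.941, 1.03 and 0.938) and tested with edgeR 4.0.16 (glmQLFit, glmQLFTest; R 4.3.3) without a block. CPM were TMM-scaled, and intervals cover 95%. Composition and ratios used FPKM. Alternatives were DESeq2 1.42.0 and its size factors, library size alone, other filters, all biotypes, limma 3.58.1 on log2(FPKM + 1) and log2(FPKM + 0.1), a replicate block, a lowess correction for gene length (span 0.3) and leaving out each library. Scaling to pan-neuronal markers, Nefl or Nefh, and the length correction of ratios, were added after seeing the data. The scripts were tested on simulated data. The pan-neuronal factor was the geometric mean of the listed markers' counts (after adding 0.5) in each library.

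Named were the members, the called genes and the 2 most abundant tested genes of each list, the nearest tested neighbours without overlap, and the 5 genes nearest in course. Of the genes so named, 2 are not reported here. Other named genes were chosen after their values were seen. Members and lists were chosen with earlier results of these data known. Libraries were grouped by the treatment in the labels.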

Additional observations from a re-analysis of the deposited data

How the results depend on the processing

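None of the 5 genes was called under any alternative run, and the log2 difference kept its sign in all settings but the following. Scaling to the pan-neuronal markers gave -0.17 for Nefl, -0.14 for Nefm, -0.26 for Nefh and -0.0266 for Prph. With a replicate block added to that scaling it gave -0.17, -0.13, -0.26 and -0.0254 for these genes and -0.000623 for Ina. Leaving out 1 library at a time gave -0.0927 to 0.41 for Nefl, -0.0237 to 0.41 for Nefm, -0.19 to 0.33 for Nefh, -0.17 to 0.83 for Ina and 0.08 to 0.52 for Prph. Correction for gene length gave log2 differences of -0.0257 for Prph to Nefl, 0.0311 for Prph to Nefh and -0.0568 for Nefh to Nefl, and with a replicate block added gave -0.0279, 0.0285 and -0.0564. The cause was not tested. A fit that leaves out 1 library takes the lone library to vary like the other group.

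Replicate numbers are shared by different rats. Differences between replicates 2 and 1 correlated across 14719 genes between the groups (Pearson's r 0.444, Spearman's rho 0.567), but with only 2 pairs this does not show that the numbers pair the libraries. With the replicate block the log2 differences were 0.16 for Nefl, 0.20 for Nefm, 0.07 for Nefh, 0.33 for Ina and 0.31 for Prph. The lowest edgeR adjusted p of the 5 genes was 0.0646 (Ina) with the block and 0.0179 (Ina) once length was corrected as well, where the log2 difference of 0.51 was under the fold threshold. Over all genes the block gave 494 calls higher and 1038 lower, and DESeq2 gave 45 higher and 81 lower, against 0 and 1. Block plus length correction gave 263 and 749. In the lists of the report, where no gene was called in edgeR without it, the block alone gave 5 lower calls among neurofilament linker and transport genes, 2 lower among axonal cytoskeleton genes, 3 higher among pan-neuronal markers, 1 lower among large-neuron and 1 higher among small-neuron markers, 3 lower among glial markers, 1 higher and 3 lower among fibroblast markers and 3 lower among muscle markers. Each member had 1256 counts or more in every library.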
